A study of Mus musculus with 3 samples.

Results

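The Dlk1 to Dio3 imprinted locus on mouse chromosome 12 was followed through its 6 listed genes, of 23397 genes measured in all. These were the maternally expressed long noncoding RNAs Meg3, Rian and Mirg and the paternally expressed protein-coding genes Dlk1, Rtl1 and Dio3. The 6 genes were picked by name with their values in these same libraries already known, so their levels are given as a description and no test is made of them. Each gene's value was the sum over its annotated transcripts, and the maternally expressed RNAs were set beside the paternally expressed genes.

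Imprinted genes are transcribed mainly from the chromosome inherited from 1 parent. At this locus the choice is set by a control region between Dlk1 and Meg3, which is methylated on the paternal chromosome. The noncoding RNAs are then made from the maternal chromosome and the protein-coding genes from the paternal. Meg3, Rian and Mirg lie in the same direction and are thought to belong to long transcripts that also carry many small nucleolar RNAs and microRNAs. Expression of the maternal RNAs is known to vary between cultured mouse pluripotent stem cell lines, and Dlk1 is known in the embryo from mesenchyme, liver and other growing tissues.

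The cells were endothelial cells of embryoid bodies, the floating aggregates in which embryonic stem cells differentiate, collected at day 4.75 and sorted as Tie2+, CD31+ and CD41-. SclKO cells carried a knockout of Scl (current symbol Tal1), a transcription factor needed for all blood formation. The library labelled Gata12KO came from cells labelled as a knockout of Gata1 and Gata2, zinc-finger factors of the blood lineages. WT cells carried neither change. Each genotype had 1 library and no clone or passage is stated, so there were 3 libraries, no replicates and no tests. Differences between stem cell lines and between genotypes cannot be told apart in this design. The series asked which genes are targets of Scl and of the Gata1 and Gata2 pair.

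Levels are in FPKM, the fragments per kilobase of transcript and 1M mapped fragments, with the lower and upper confidence bounds deposited beside them, given as "bounds". For most genes of 1 transcript they span 2 Poisson standard deviations on either side, which is counting error. For genes of several transcripts, such as Dlk1, some are wider than that. Differences between cultures are not in them. Each ratio is the log2 of (FPKM + 1) in the first-named library over (FPKM + 1) in the other, which shrinks the ratios of low genes, and folds are given without the added 1. A gene is called higher or lower where it had at least 1 FPKM in some library, differed at least 2-fold on that scale and had bounds that did not overlap. The words describe these libraries alone. In bulk RNA, fewer cells of a type and less RNA per cell cannot be told apart.

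The bounds implied 28.3M fragments in SclKO, 50.3M in the library labelled Gata12KO and 31.6M in WT. Tal1 had 1.59 FPKM in SclKO, 38.7 in the library labelled Gata12KO and 51.0 in WT. Gata1 was listed at 0 in SclKO and had 5.66 FPKM in the library labelled Gata12KO and 4.64 in WT. Gata2 had 5.81, 44.9 and 12.05 FPKM in SclKO, the library labelled Gata12KO and WT. Neither Gata gene was below WT in the library that carries their names, so these levels do not bear out that label. A deleted exon would not show in a whole-transcript value, so they cannot decide it, and the label is quoted as given. The Y-linked genes Ddx3y, Uty and Eif2s3y, looked up after values were seen, were also low in WT. Ddx3y had 8.17 FPKM in SclKO, 11.8 in the library labelled Gata12KO and 1.25 in WT, and the part of any difference between the lines in the locus values was not tested.

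Summed endothelial markers came to 372 FPKM in SclKO, 872 in the library labelled Gata12KO and 729 in WT, with all 15 markers present at 1 FPKM or more in some library. In SclKO against WT 7 were called lower and 0 higher, where 4.24% and 2.12% of all genes were. In the library labelled Gata12KO against WT 0 were lower and 2 higher, where 3.75% and 0.767% were. Pecam1 and Eng were instead above WT in SclKO, at 50.4 and 46.0 FPKM against 48.3 and 28.2. Markers of blood summed to 1.79, 31.8 and 216 FPKM in SclKO, the library labelled Gata12KO and WT. Of these sums Itga2b alone gave 0.333, 17.6 and 22.8 FPKM. Markers of mesenchyme and smooth muscle summed to 166, 40.3 and 91.9 FPKM in the same order, and none of the 10 was at 0 in any library. That order of the libraries, SclKO above WT and WT above the library labelled Gata12KO, was also the order of Meg3, Rian, Mirg and Dlk1 below. Of skeletal muscle markers only Des reached 1 FPKM, and their sum of 19.6 FPKM in SclKO, 6.51 in the library labelled Gata12KO and 13.3 in WT had the same order. The 6 cardiomyocyte markers summed to 14.7 FPKM in SclKO, 10.4 in the library labelled Gata12KO and 11.9 in WT, but only Tnnt2 and Nkx2-5 had that order singly. Myl7, Myh6 and Myh7 were highest in the library labelled Gata12KO and Actc1 in WT. Sums of pluripotent, endoderm and neuroectoderm markers had other orders, with highest values of 35.7, 11.8 and 6.86 FPKM. Singly, however, 5 of the 9 pluripotent markers had the order of Meg3 (Nanog, Zfp42, Tdgf1, Utf1 and Esrrb), all at low levels. Dppa4 alone gave 25.2 FPKM of the pluripotent sum in WT. Of endoderm markers 1 of 9 had that order (Epcam), and of skeletal muscle markers 2 of 4. Among neuroectoderm, endothelial and blood markers it was 0 of 5, 0 of 15 and 0 of 12. The share of all genes with that order is not given here, so these counts are a description only. The part of such cells in the locus values was not tested.

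Meg3, a noncoding RNA that carries no long reading frame and is described as a tumour suppressor, had 50.7 FPKM in SclKO (bounds 48.5 to 52.9), 0.749 in the library labelled Gata12KO (0.549 to 0.953) and 18.4 in WT (17.1 to 19.6). SclKO stood highest and the library labelled Gata12KO lowest, and no pair of bounds overlapped. In SclKO against WT the log2 ratio was 1.42, a 2.76-fold higher level. Set against WT, the library labelled Gata12KO had a ratio of -3.47, with WT 24.5-fold higher, and against SclKO it was -4.89, with SclKO 67.7-fold higher. Meg3 was called higher in SclKO against WT, and lower in both comparisons of the library labelled Gata12KO. Of 11080 genes with at least 1 FPKM in some library, 105 had a higher ratio than Meg3 in SclKO against WT. For the library labelled Gata12KO, 23 genes had a lower ratio against WT and 17 a lower ratio against SclKO.

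On mm9, the build that the files' chromosome names fit, Meg3 spans 110779206 to 110809939 of chromosome 12, on the forward strand. Most of its level came from the 10-exon transcript of 1913 nt, which had 47.8 FPKM in SclKO, 0.682 in the library labelled Gata12KO and 17.5 in WT. A 5-exon transcript of 11422 nt, with a terminal exon of 9961 nt, had 2.95, 0.0672 and 0.825 FPKM in the same libraries. The long form thus made up 5.82% of the gene's FPKM in SclKO, 8.97% in the library labelled Gata12KO and 4.49% in WT, so both forms were ordered alike across libraries. A 9-exon transcript of 11410 nt was listed at 0 in all 3 libraries.

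The next RNA downstream is Rian, the host of a row of C/D small nucleolar RNAs and some microRNAs, at 110842155 to 110899921 on the forward strand (21 exons, 3579 nt). Rian had 12.1 FPKM in SclKO (bounds 11.4 to 12.8), 0.384 in the library labelled Gata12KO (0.290 to 0.479) and 3.42 in WT (3.06 to 3.77). It kept the order seen for Meg3, with separate bounds in each pair. Its log2 ratio was 1.57 in SclKO against WT, 3.54-fold higher with an exact 95% counting interval of 3.15 to 4.00. For the library labelled Gata12KO the ratio was -1.67 against WT, with WT 8.89-fold higher (6.83 to 11.7), and -3.24 against SclKO, with SclKO 31.5-fold higher (24.6 to 41.0). Rian was called higher in the first of these comparisons and lower in the other two. With 5 FPKM added in place of 1, its ratio in the library labelled Gata12KO against WT was -0.64 and was not called.

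Mirg, the host of the most distal microRNA group, lies at 110973191 to 110987667 on the forward strand (8 exons, 1299 nt). Mirg had 2.96 FPKM in SclKO (bounds 2.34 to 3.57), 0.140 in the library labelled Gata12KO (0.0411 to 0.240) and 0.881 in WT (0.564 to 1.20). The bounds were separate in each pair, in the order of Meg3 and Rian. These values rest on 92 implied fragments in SclKO, 8 in the library labelled Gata12KO and 31 in WT. Mirg was called higher in SclKO against WT, at a log2 ratio of 1.07 and a 3.36-fold difference (2.21 to 5.22). It was called lower in the library labelled Gata12KO against SclKO, at -1.79, with SclKO 21.1-fold higher (10.2 to 50.2). Against WT its ratio there was -0.72 and missed the 2-fold rule, with WT 6.27-fold higher (2.82 to 15.8) when the added 1 is left out. With 5 FPKM added, the ratios in SclKO against WT and in the library labelled Gata12KO against SclKO were 0.44 and -0.63, and neither was called.

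**Figure D1:**
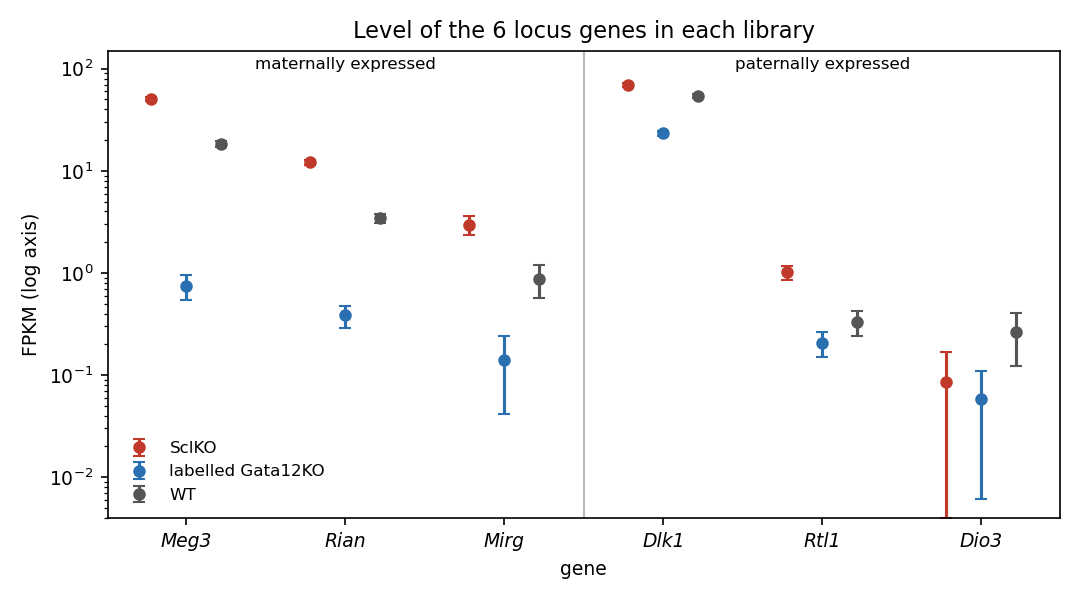
FPKM of the 6 genes of the locus on a log axis, with a point for each library (SclKO, the library labelled Gata12KO, WT) and bars for the deposited confidence bounds. The lower bound of Dio3 in SclKO is 0, so that bar runs to the bottom of the axis. Meg3 stands at 50.7 FPKM in SclKO, 0.749 in the library labelled Gata12KO and 18.4 in WT, while Dlk1 spans only 69.0 to 23.2.

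Annotated starts of these RNAs are shown because the RNAs kept a common order across the libraries. Each window runs from 250 bases before to 50 bases after the start in RefSeq on GRCm38.p6, 5′ to 3′ on the forward strand. Capitals mark the motifs TGACGTCA, a cyclic AMP response element, and TATAAA, and any GATA hexamer (AGATAA or else AGATAG or else TGATAA or else TGATAG), each searched on both strands.
Meg3 start, chr12:109540746-109541045: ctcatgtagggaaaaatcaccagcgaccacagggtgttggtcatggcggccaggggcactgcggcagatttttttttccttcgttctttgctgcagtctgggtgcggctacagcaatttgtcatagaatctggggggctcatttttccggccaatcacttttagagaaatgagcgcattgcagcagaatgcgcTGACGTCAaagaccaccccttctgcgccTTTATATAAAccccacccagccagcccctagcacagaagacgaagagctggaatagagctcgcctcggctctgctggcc
Rian start, chr12:109603695-109603994: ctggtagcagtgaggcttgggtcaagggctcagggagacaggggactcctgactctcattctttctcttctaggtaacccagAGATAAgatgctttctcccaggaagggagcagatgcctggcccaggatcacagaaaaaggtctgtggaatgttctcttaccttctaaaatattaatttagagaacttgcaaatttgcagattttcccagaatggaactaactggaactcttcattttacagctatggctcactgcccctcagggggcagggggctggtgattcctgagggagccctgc
Mirg start, chr12:109734731-109735030: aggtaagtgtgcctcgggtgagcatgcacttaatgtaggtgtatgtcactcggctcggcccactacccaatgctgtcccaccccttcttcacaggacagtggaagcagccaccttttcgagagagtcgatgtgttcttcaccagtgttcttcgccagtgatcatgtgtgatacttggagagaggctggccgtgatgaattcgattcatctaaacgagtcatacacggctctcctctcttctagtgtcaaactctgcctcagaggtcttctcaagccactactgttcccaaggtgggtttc
The Meg3 window shown, at the upstream of its 2 annotated starts, held 13 CG dinucleotides, 1 TGACGTCA and 2 TATAAA matches on opposite strands that overlap each other. TGACGTCA was found in 1.79% of 32851 promoter windows of the same length and TATAAA in 13.6%. The Rian window held no CG dinucleotide and 1 GATA hexamer, which 29.8% of windows hold. The Mirg window held 10 CG dinucleotides, against a median of 7, and none of the capitalised motifs. It also spans miR-668-5p, miR-668-3p and miR-485-3p on the same strand, and whether it acts as a promoter was not tested. The E-box CANNTG, also searched, had 0 matches in that Meg3 window and 1 each at Rian and Mirg, and 72.3% of windows hold it. A second Meg3 window, chr12:109545148-109545447, held 1 CG dinucleotide, 1 E-box and none of the capitalised motifs. The Dlk1 window, chr12:109452573-109452872, held 9 CG dinucleotides and 1 GATA hexamer. By its distance from the Meg3 window it lies at the start of a Dlk1 transcript of 4679 nt. That transcript made up 4.00% of Dlk1 FPKM in SclKO, 4.41% in the library labelled Gata12KO and 1.45% in WT. The full-length Dlk1 transcript starts 0.632 kb further downstream, outside this window, and its start was not searched. A match is a run of letters and not a bound site, and no match says only that the letters are not in that window.

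Among the paternally expressed genes, Dlk1 encodes a transmembrane protein with EGF-like repeats that restrains differentiation, for example of fat cells, and acts as a noncanonical Notch ligand. It lies at 110691033 to 110701546 on the forward strand, at the head of the locus. Dlk1 had 69.0 FPKM in SclKO (bounds 66.2 to 71.9), 23.2 in the library labelled Gata12KO (21.9 to 24.6) and 54.6 in WT (52.1 to 57.1). Its order across libraries was that of Meg3, over a narrower span, and no pair of bounds overlapped. The log2 ratio of SclKO against WT was 0.33, or 1.26-fold, which is under the 2-fold rule. Dlk1 in the library labelled Gata12KO was called lower against WT, at -1.20 with WT 2.35-fold higher, and lower against SclKO, at -1.53 with SclKO 2.97-fold higher. Both calls depend on the scaling between libraries. With values scaled to a common sum over all entries (TPM), the ratios were -0.53 and -0.74, and neither was called. That scaling also moved the median of all genes to 0.51 and 0.65 in these comparisons, so Dlk1 stayed below it in both.

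The full-length Dlk1 transcript of 4339 nt carried 60.2 FPKM in SclKO, 19.8 in the library labelled Gata12KO and 47.8 in WT. It made up 87.2% of the gene in SclKO, 85.2% in the library labelled Gata12KO and 87.5% in WT. A set of 3 further coding forms, from which 153, 219 or 285 bases of the last exon are spliced out, summed to 6.06, 2.41 and 6.02 FPKM in the same libraries. That is 8.78% of the gene in SclKO, 10.4% in the library labelled Gata12KO and 11.0% in WT. How this sum divided among them varied more. The form lacking 219 bases had 0.000286 FPKM in SclKO, 0.915 in the library labelled Gata12KO and 3.30 in WT, and the form lacking 153 bases had 5.35, 1.44 and 1.45 FPKM. These forms differ only around 1 splice junction and were sequenced with 50 nt reads, so the split is uncertain.

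Rtl1 is a retrotransposon-derived, single-exon gene needed in the placenta, on the reverse strand at 110828379 to 110833613 (5235 nt). Rtl1 had 1.01 FPKM in SclKO (bounds 0.845 to 1.18), 0.208 in the library labelled Gata12KO (0.151 to 0.265) and 0.332 in WT (0.241 to 0.423). SclKO stood above both others with separate bounds, and the bounds of the other two overlapped. The log2 ratio was 0.60 in SclKO against WT, -0.14 in the library labelled Gata12KO against WT and -0.74 against SclKO, none of which met the rule. Without the added 1, SclKO was 3.05-fold higher than WT (2.21 to 4.27) on 144 implied fragments in SclKO and 53 in WT, and 4.88-fold higher than the library labelled Gata12KO (3.54 to 6.82). With 0.1 FPKM added in place of 1, both of these differences met the rule, at log2 ratios of 1.37 and -1.86. No source used here gives the strand setting of the quantification, so reads from Rtl1 and of the maternally expressed RNA antisense to it cannot be told apart. An annotated antisense entry, 6430411K18Rik, lay at or near 0 in all 3 libraries. Its upper bounds were 0.0633 FPKM in SclKO, 0.0346 in the library labelled Gata12KO and 0.0560 in WT. That entry lies wholly within the Rtl1 exon, so without a known strand setting its value does not show that the antisense RNA is absent.

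Dio3, at the distal end (111517440 to 111519307, forward strand, 1 exon of 1868 nt), encodes the deiodinase that inactivates thyroid hormones. Dio3 had 0.0847 FPKM in SclKO (bounds 0 to 0.169), 0.0584 in the library labelled Gata12KO (0.00617 to 0.111) and 0.263 in WT (0.123 to 0.404). All 3 values lie far under 1 FPKM, so Dio3 could not be called in any comparison. They rest on 4 implied fragments in SclKO, 5 in the library labelled Gata12KO and 14 in WT. The ratio of SclKO to WT was 0.322 with an exact 95% counting interval of 0.0771 to 1.02, and that of the library labelled Gata12KO to WT was 0.222 with 0.0625 to 0.652. Dio3 was the only 1 of the 6 with its highest value in WT. Its antisense RNA Dio3os was listed at 0 in SclKO and had 0.0536 FPKM in the library labelled Gata12KO and 0.0868 in WT.

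Counted together, 3 of the 6 genes were called higher in SclKO against WT and 0 lower, and all 3 were the maternally expressed RNAs. Of all 11080 genes tested, 2.12% were called higher and 4.24% lower in that comparison. Between the library labelled Gata12KO and WT, 0 of the 6 were higher and 3 lower (Meg3, Rian and Dlk1), where 0.767% of all genes were higher and 3.75% lower. Between the library labelled Gata12KO and SclKO, 0 of the 6 were higher and 4 lower (Meg3, Rian, Mirg and Dlk1), where 3.38% of all genes were higher and 3.75% lower. The median log2 ratio of the 6 genes was 0.83 in SclKO against WT, where that of all tested genes was -0.03. It was -0.96 in the library labelled Gata12KO against WT (-0.08 over all genes) and -1.66 against SclKO (-0.06 over all genes). The genes were chosen on these contrasts, so nothing is read from these counts, and each pair of comparisons shares a library. The split of all genes depends on scaling. Under TPM, 1348 genes were higher and 118 lower when the library labelled Gata12KO was compared with WT, where FPKM gave 85 and 415. Against SclKO the counts were 2174 and 122 under TPM, where FPKM gave 375 and 416.

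**Figure D2:**
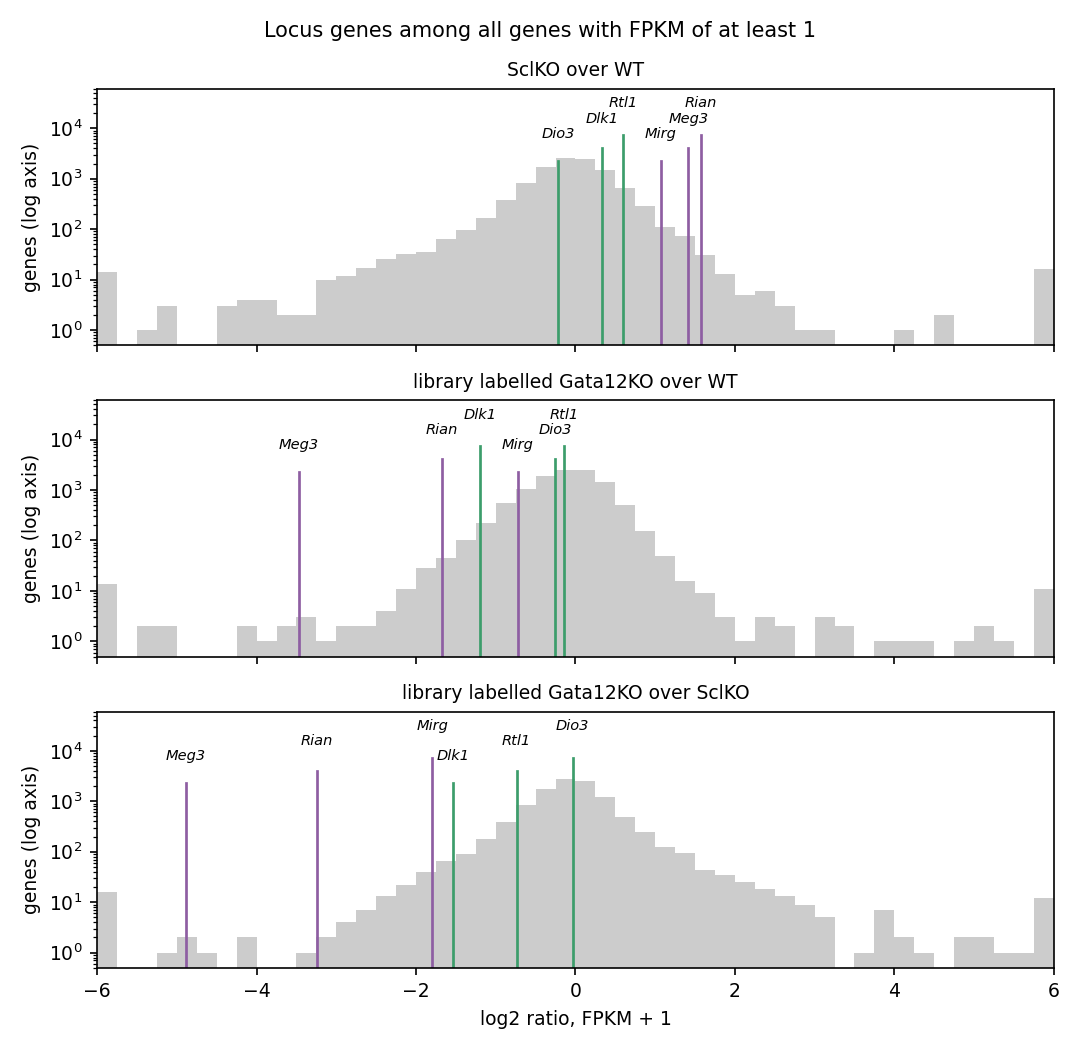
Histograms of the log2 ratios of all 11080 genes tested in each comparison, with lines at the ratios of the genes of the locus. Ratios beyond 6 on either side are put in the end bins. Meg3 lies at 1.42 in SclKO against WT, at -3.47 in the library labelled Gata12KO against WT and at -4.89 in the library labelled Gata12KO against SclKO.

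Summed by parent of origin, the maternally expressed RNAs came to 65.8 FPKM in SclKO (summed bounds 62.3 to 69.3), 1.27 in the library labelled Gata12KO (0.880 to 1.67) and 22.7 in WT (20.8 to 24.6). The paternally expressed genes came to 70.1 FPKM in SclKO (67.0 to 73.3), 23.5 in the library labelled Gata12KO (22.1 to 24.9) and 55.2 in WT (52.5 to 57.9). Both sums had the order SclKO, WT, library labelled Gata12KO, and the maternal sum covered the wider range. The maternal share of the 6 genes' FPKM was 48.4% in SclKO, 5.14% in the library labelled Gata12KO and 29.1% in WT. Paternal over maternal FPKM was 1.07 in SclKO, 18.5 in the library labelled Gata12KO and 2.44 in WT. This within-library ratio does not depend on how libraries are scaled to each other. Dlk1 supplied 98.4% of the paternal sum in SclKO, 98.9% in the library labelled Gata12KO and 98.9% in WT, so the paternal sum is in effect Dlk1. Meg3 supplied 77.1%, 58.8% and 81.0% of the maternal sum in SclKO, the library labelled Gata12KO and WT.

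Proportions among the maternal RNAs were nearer to each other in SclKO and WT than in the library labelled Gata12KO. Meg3 over Rian was 4.19 in SclKO, 1.95 in the library labelled Gata12KO and 5.38 in WT. Rian over Mirg was 4.10, 2.74 and 3.88 in the same libraries, the middle value resting on the 8 fragments of Mirg.

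**Figure D3:**
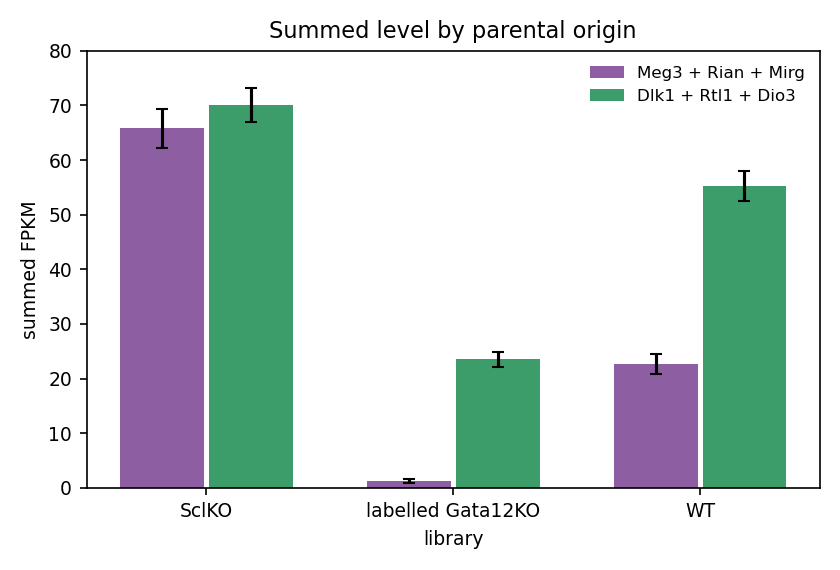
Summed FPKM of the maternally expressed RNAs and of the paternally expressed genes in SclKO, the library labelled Gata12KO and WT, with bars for the summed bounds. The maternal sum is 65.8, 1.27 and 22.7 FPKM and the paternal sum 70.1, 23.5 and 55.2 FPKM in these libraries.

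The microRNAs of the locus are shown because some lie within the noncoding RNAs described above and others opposite to Rtl1, although these libraries could not measure them. Of 81 entries between Dlk1 and Dio3, 65 were shorter than 300 nt, namely 58 microRNA and 7 small nucleolar RNA precursors. Of these, 63 were listed at 0 in all 3 libraries. Mir431 had 125 FPKM (bounds 0 to 582) and the small nucleolar RNA AF357425 2106 FPKM (0 to 6317), both in SclKO with 0 in the other libraries, and both bounds reach 0. All 7 small nucleolar RNAs and 3 microRNA entries lay within Rian, 10 microRNA entries within Mirg, 2 within Meg3 and 28 between Rian and Mirg. Another 6 lay opposite to Rtl1, and in mouse such antisense microRNAs are known to direct cleavage of Rtl1 mRNA. Their main arms, from RefSeq on GRCm38.p6 with the seed (bases 2 to 8) in capitals, share no seed with each other.
mmu-miR-431-5p: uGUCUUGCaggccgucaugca
mmu-miR-433-3p: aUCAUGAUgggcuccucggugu
mmu-miR-127-3p: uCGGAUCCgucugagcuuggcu
mmu-miR-434-3p: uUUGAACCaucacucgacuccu
mmu-miR-432: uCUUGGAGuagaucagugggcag
mmu-miR-136-5p: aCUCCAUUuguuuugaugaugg
The 58 entries matched 107 different mature sequences with 99 distinct seeds, of which 8 were shared by 16 sequences. Only 2 of these 8 seeds occur in Mirg. GGUUGCC is shared by a pair inside Mirg, and GGUUGUC by a Mirg microRNA and miR-494-5p, which lies between Rian and Mirg. Another, AGGUCAC, is shared by miR-370-5p in Rian and miR-1193-3p between Rian and Mirg, and AUGUAAC by a pair between Rian and Mirg.
mmu-miR-453: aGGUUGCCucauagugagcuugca
mmu-miR-496a-5p: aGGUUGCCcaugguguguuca
mmu-miR-410-5p: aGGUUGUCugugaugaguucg
mmu-miR-494-5p: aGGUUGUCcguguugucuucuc
mmu-miR-379-3p: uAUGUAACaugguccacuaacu
mmu-miR-411-3p: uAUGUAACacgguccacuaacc
Of these last sequences, only miR-453, miR-496a-5p and miR-410-5p lie within a measured host on its own strand, and a host's level is not that of a mature microRNA.

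Within 500 kb on either side, 6 further genes are listed and 4 reached 1 FPKM in some library, with 0 calls in the 3 comparisons. Over all genes, between 0.767% and 4.24% were called in a given direction and comparison. Begain, upstream of Dlk1, had 0.612 FPKM in SclKO, 0.507 in the library labelled Gata12KO and 1.20 in WT. Without the added 1, WT was 2.37-fold higher than the library labelled Gata12KO (1.51 to 3.79 from the bounds, which were separate), so Begain missed the rule through the added 1. Downstream of Dio3, the phosphatase subunit Ppp2r5c had 30.7 FPKM in SclKO, 29.0 in the library labelled Gata12KO and 32.8 in WT. The dynein heavy chain Dync1h1 had 23.4, 19.4 and 18.7 FPKM, and the chaperone Hsp90aa1 87.6, 94.3 and 75.5 FPKM, in the same libraries. Log2 ratios of the 4 lay between -0.45 and 0.31 in SclKO against WT, between -0.55 and 0.32 in the library labelled Gata12KO against WT, and between -0.26 and 0.11 in the library labelled Gata12KO against SclKO.

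**Figure D4:**
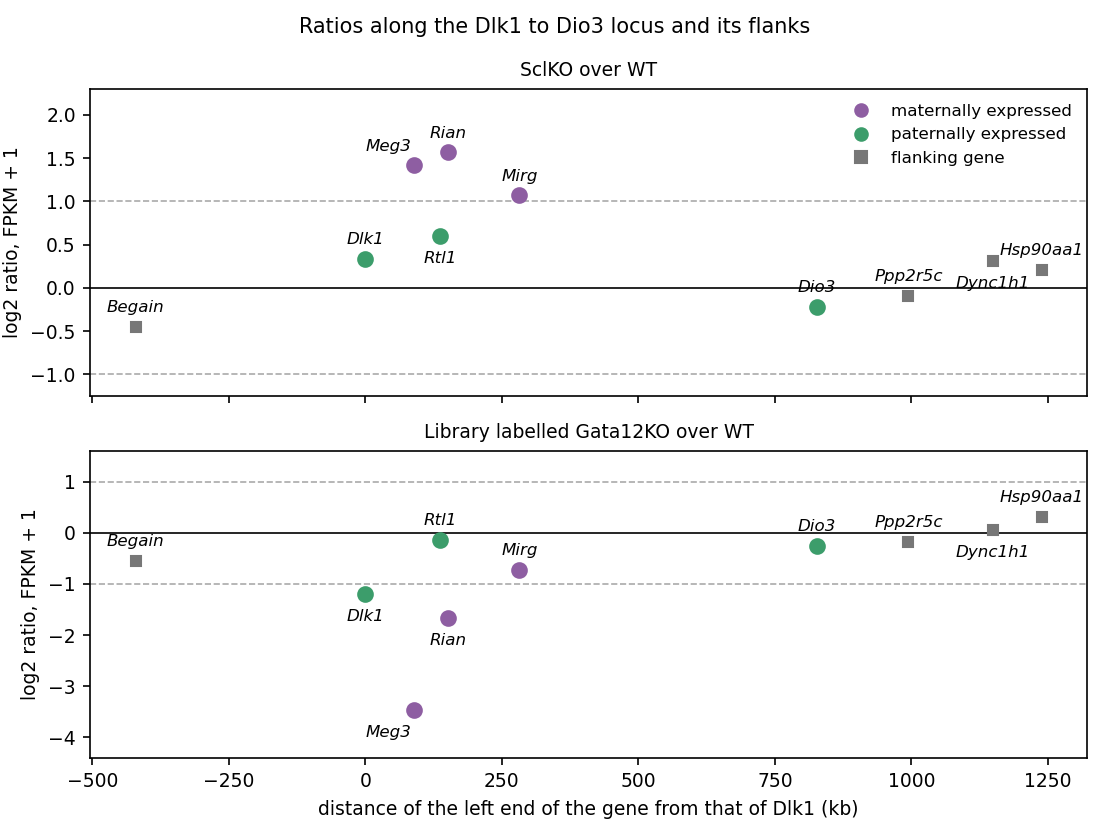
Log2 ratios of the genes of the locus and its flanks against the distance of their left ends from that of Dlk1, for SclKO over WT and the library labelled Gata12KO over WT, with dashed lines at 2-fold. Meg3 and Rian reach 1.42 and 1.57 in SclKO against WT and -3.47 and -1.67 in the library labelled Gata12KO against WT, while the expressed flanking genes stay between -0.55 and 0.32 in these comparisons.

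Among listed regulators of the imprint, which include DNA methyltransferases, Tet enzymes and Polycomb genes, 17 of 19 measured were expressed. In SclKO against WT 0 were called higher and 1 lower, where 2.12% of all genes were higher and 4.24% lower. The 1 lower gene was Tet2, which oxidises methylated cytosine, with 7.05 FPKM in SclKO and 17.5 in WT (log2 ratio -1.20). In the library labelled Gata12KO against WT 0 of the 17 were called, and against SclKO Tet2 was the 1 higher call, with 15.7 FPKM in the library labelled Gata12KO and 7.05 in SclKO. Zfp57, the zinc-finger protein that guards imprints, had 20.7 FPKM in SclKO, 18.2 in the library labelled Gata12KO and 24.0 in WT. The de novo methyltransferase Dnmt3a had 19.2, 10.9 and 12.7 FPKM and Dnmt3b 6.11, 10.9 and 5.24 FPKM in the same libraries, with no call. Medians of the list were 0.25 in SclKO against WT, -0.0042 in the library labelled Gata12KO against WT and -0.13 against SclKO.

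Imprinted genes at other loci did not share a single direction. Of 30 expressed among 38 measured, 4 were higher and 3 lower in SclKO against WT, 2 higher and 2 lower where the library labelled Gata12KO was set against WT, and 2 higher and 6 lower where it was set against SclKO. Shares over all genes were 2.12% higher and 4.24% lower, 0.767% and 3.75%, and 3.38% and 3.75% in the same comparisons. The medians of the imprinted genes were 0.16, -0.05 and -0.50. Peg3, a paternally expressed zinc-finger gene, had 191 FPKM in SclKO, 104 in the library labelled Gata12KO and 48.1 in WT, and Nnat had 106, 64.9 and 19.4 FPKM. Both were called higher in SclKO and in the library labelled Gata12KO, each against WT. Grb10, an adaptor of growth factor receptors, had 0.279 FPKM in SclKO, 69.6 in the library labelled Gata12KO and 46.1 in WT. It was called lower in SclKO against WT (log2 ratio -5.20) and higher in the library labelled Gata12KO against SclKO (5.79). Cdkn1c, a growth-restraining cell cycle inhibitor, was called higher in SclKO against WT, with 133 FPKM in SclKO and 61.4 in WT. Peg13, a noncoding RNA, had 1.03 FPKM in SclKO, 0.166 in the library labelled Gata12KO and 4.36 in WT and was called lower in SclKO and in the library labelled Gata12KO against WT.

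Partners of the member proteins were read from lists of their pathways. Of 15 expressed Notch pathway genes, 0 were higher and 1 lower in SclKO against WT. That was Nrarp, a Notch target and feedback inhibitor, with 1.89 FPKM in SclKO and 6.49 in WT. Against WT 1 was higher in the library labelled Gata12KO, the ligand Jag2, with 4.76 FPKM there and 1.32 in WT. Against SclKO 5 were higher and 0 lower, namely Dll4, Hey1, Jag2, Notch4 and Nrarp. Of all genes, 2.12% were higher and 4.24% lower, 0.767% and 3.75%, and 3.38% and 3.75% in the 3 comparisons. The medians of the Notch list were -0.14, 0.46 and 0.34. Dll4, Hey1 and Notch4 are also known from arterial endothelium. Of 15 endothelial markers, 11 were called higher in the library labelled Gata12KO against SclKO, where 3.38% of all genes were. The part of endothelial levels in the Notch calls was not tested.

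For Dio3, 9 of 17 genes of thyroid hormone transport and response were expressed, with 1 higher and 0 lower in SclKO against WT and 0 called in either comparison of the library labelled Gata12KO. The higher gene was Slc7a5, an amino acid transporter that also carries thyroid hormone, with 35.5 FPKM in SclKO and 12.1 in WT. The activating deiodinases Dio1 and Dio2 were at or near 0, at most 0.0441 FPKM for Dio2. For Rtl1, 4 of 9 measured retrotransposon-derived relatives were expressed and 0 were called in SclKO against WT. Against WT 3 were lower in the library labelled Gata12KO (Rtl8a, Rtl8b and Rtl8c), as was 1 against SclKO (Rtl8b), and these 3 are near-identical copies whose reads may be shared. Peg10, the imprinted relative of Rtl1, had 483 FPKM in SclKO, 292 in the library labelled Gata12KO and 307 in WT and was not called. MicroRNA processing factors held 1 call among 10 expressed. It was Lin28b, a blocker of let-7 processing, with 14.4 FPKM in the library labelled Gata12KO against 6.65 in SclKO. Beside these lists, 2.12% of all genes were higher and 4.24% lower in SclKO against WT. For the library labelled Gata12KO the shares were 0.767% and 3.75% against WT, and 3.38% and 3.75% against SclKO.

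Of the 10 mesenchymal markers, 7 had the order of Meg3 singly and 3 did not (Pdgfrb, Tagln and Foxf1). So did 6 of 19 measured regulators of the imprint and 8 of 38 other imprinted genes. The share of all genes with that order is not given here, so nothing is read from these counts. Acta2, smooth muscle actin, had 55.1 FPKM in SclKO, 11.7 in the library labelled Gata12KO and 42.1 in WT, and Snai2, a mesenchymal repressor, had 31.8, 5.36 and 11.3 FPKM. By the rule, 4 were higher and 0 lower in SclKO against WT. In the library labelled Gata12KO 1 was higher and 3 lower against WT, and 0 higher and 8 lower against SclKO. The gene called higher against WT was Foxf1, with 2.53 FPKM in the library labelled Gata12KO and 0.722 in WT. Among all genes, 2.12% were higher and 4.24% lower in SclKO against WT. For the library labelled Gata12KO the shares were 0.767% and 3.75% against WT, and 3.38% and 3.75% against SclKO.

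The nearest patterns were sought among 7360 named genes with at least 5 FPKM in some library, by the distance between the pairs of log2 ratios against WT, over 3 libraries. Nearest to Dlk1 were Col1a2, a collagen chain, at a distance of 0.03 (14.9 FPKM in SclKO, 4.40 in the library labelled Gata12KO, 11.3 in WT), Mfap2 at 0.06, Krt18 at 0.09, Gchfr at 0.09 and Rgs5 at 0.11. Nearest to Meg3 was Pdlim3, a muscle cytoskeleton protein, at 1.53 (14.9 FPKM in SclKO, 1.00 in the library labelled Gata12KO, 7.01 in WT), then S100a6 at 1.69, Cic at 1.70, Rian at 1.80 and Tlx1 at 1.88. No gene searched lay closer to Meg3 than 1.53. Cic lacked the direction of Meg3 in SclKO, with 5.22 FPKM in SclKO, 3.54e-05 in the library labelled Gata12KO and 5.78 in WT. With 3 libraries a likeness of pattern is a description of the levels only.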

How the data were processed

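Total RNA of 3 libraries, 1 per genotype, was sequenced as 50 nt reads. The deposited files give FPKM per RefSeq entry with lower and upper bounds, written by Cufflinks per the file headers' source column. Named per the submitters' processing notes, with no role for each, are Cufflinks 2.0.1, TopHat2 2.0.4, Cuffdiff and the builds mm9 and hg19. Coordinates are on mm9, whose chromosome names the files fit. Other values used here come from no deposited file: log2 ratios, TPM (FPKM scaled to a common sum) and fragment counts were computed from the deposited FPKM and bounds.

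Of 29610 accessions, 29030 were named by the RefSeq gene table and 173 by GENCODE. A set of 134 entries whose symbols differed between files was left out. FPKM and bounds were summed per gene, which makes summed bounds wider than joint ones. Fragments per entry follow from the width of the bounds, and for entries of at least 100 fragments 94.5% in SclKO, 94.3% in the library labelled Gata12KO and 94.5% in WT lay within 1% of a fitted depth. Fold intervals for genes of 1 entry are exact binomial ones. The call rule was tested on simulated libraries. The genes followed and all gene lists were chosen with earlier results of these data known. H19 had no entry named so and Bop1, listed by mistake among relatives of Rtl1, was left out. Named genes are the 6 genes and their transcripts, flanking genes within 500 kb at 1 FPKM or more, up to 4 genes per list with the largest ratios, the 5 nearest patterns of Meg3 and Dlk1, and the targeted genes. Zfp57 and Dnmt3b levels in all libraries, Cdkn1c, Peg13 and Y-linked genes beyond that rule were chosen after their values were seen. Nanog, Zfp42, Esrrb, Myh6, Myh7, Tagln, Eng, Dio1, Dio2, Dio3os and 6430411K18Rik are also named beyond that rule. Of the promoter windows, 5 of the 6 genes had an entry in the RefSeq table. The alternatives changed the pseudocount, the minimum, the entries summed, the scaling, a length trend and the bounds condition. Python 3.11.15, pandas 2.3.3, scipy 1.17.1 and statsmodels 0.14.6 were used.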

Additional observations from a re-analysis of the deposited data

How the results depend on the processing

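Of 198 ratios of single genes under 11 alternatives, 195 kept their direction and 181 kept both direction and call. Of the rest, 8 lost a call, 6 gained 1 and 3 reversed. The reversed ratios lay near 0 and were called in neither setting. Rtl1 in the library labelled Gata12KO against WT was 0.0049 under TPM, and Dio3 in the library labelled Gata12KO against SclKO was 0.025 under TPM and 0.081 with the length trend removed. The paternal sum lost its call in the library labelled Gata12KO against WT under TPM (-0.53) and under scaling to entries of 300 nt or longer (-0.91), and against SclKO under TPM (-0.74). Dlk1, which makes up that sum, lost its calls under the same settings. TPM moved the median of all genes to 0.51, 0.65 and -0.14 in the library labelled Gata12KO against WT, in that library against SclKO and in SclKO against WT. By construction it gives weight to short entries with very high values. Mirg also lost its calls where a minimum of 5 FPKM left it untested. Counts of all genes moved with the scaling and with the pseudocount. For the library labelled Gata12KO, TPM gave 1348 higher and 118 lower genes against WT, and 2174 and 122 against SclKO. With 0.1 added, 475 genes were higher and 744 lower in SclKO against WT, 229 and 714 in the library labelled Gata12KO against WT, and 595 and 690 in it against SclKO. With 5 these were 82 and 184, 22 and 158, and 132 and 161, where the values reported are 235 and 470, 85 and 415, and 375 and 416. Scaling to entries of 300 nt or longer gave 640, 547 and 833 higher genes in the same comparisons. In the library labelled Gata12KO against WT, the highest entry alone gave 177 higher genes and removal of the length trend 150 higher and 173 lower. Meg3 kept its calls in the 3 comparisons under all 11 alternatives. No paired analysis was possible because each group has 1 library. For the same reason no library could be left out, and differences between cultures are not in the bounds. Depth limits Dio3, with at most 14 fragments, and Mirg in the library labelled Gata12KO, with 8.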
